A study of Mus musculus with 3 samples.

Results

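Olfactory receptor genes are described here by their CpG methylation in spermatogonia of 3 mouse genotypes. The members were all protein-coding genes of the RefSeq annotation of GRCm38 (mm10) that lie on autosomes and have symbols starting with *Olfr*, 1103 of 20558 autosomal protein-coding genes. DNA methylation was measured by post-bisulfite adaptor tagging (PBAT), a whole-genome bisulfite method that attaches adaptors after the conversion of unmethylated cytosine, in spermatogonia sorted with an antibody against the surface protein EpCAM at P7, postnatal day 7. WT, *Pld6* KO and *Dnmt3L* KO males of the C57BL6/J strain were analysed, with 1 library per genotype. *Pld6* encodes a mitochondrial outer-membrane protein needed to make PIWI-interacting RNAs (piRNAs), and *Dnmt3l* encodes the cofactor of the de novo DNA methyltransferases. Both mutant lines had been backcrossed to C57BL/6J, and the WT category of the study included animals heterozygous for either mutation. The methods describe biological replicates of each genotype, and whether a deposited file pools them is not given in the sources used here. With 1 library per genotype there is no replicate spread and no test, and an effect of genotype cannot be told apart from one of the library. Levels set in a row of 3 are in the order WT, *Pld6* KO and *Dnmt3L* KO. The 95% Wilson intervals given below cover counting error only, and the calls of a read are not independent.

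Olfactory receptors are G protein-coupled receptors that span the cell membrane. They bind odorants in the nose, where each olfactory sensory neuron expresses an allele of a lone receptor gene and keeps the others silent. The genes mostly have their coding sequence in an uninterrupted exon, arose by tandem duplication and sit in dense clusters in AT-rich, repeat-rich DNA. Class I receptors resemble those of fish and lie in a large cluster around the beta-globin locus, and all others are called class II. In male germ cells, most CpG sites gain methylation before birth from the de novo methyltransferases together with DNMT3L, and the piRNA pathway directs methylation to some retrotransposons.

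The 3 libraries held 43757722 (WT), 64076569 (*Pld6* KO) and 19289688 (*Dnmt3L* KO) CpG calls, and the autosomal methylation levels were 0.704, 0.724 and 0.303. A methylation level is the share of CpG calls that were methylated. Over 66 consecutive CpG sites within *Pld6* the *Pld6* KO library had no call, and over 53 within *Dnmt3l* the *Dnmt3L* KO library had none, as their labels require. At the start of *Kcnq1ot1*, an imprinted transcript that is unmethylated in male germ cells, the levels were 0.0780, 0.0700 and 0.0154. Depth was low over the *Olfr* genes, with 1.93 calls per CpG site of gene bodies for WT, 2.76 for *Pld6* KO and 0.959 for *Dnmt3L* KO. CpG calls were therefore pooled per region, over the gene body and over a promoter region from 2 kb before to 0.5 kb after the annotated start. A region was kept with at least 5 calls in each library. By this rule 792 promoters and 715 bodies of the 1103 genes were kept, 596 genes for both and 911 for either. Of the 311 promoters that failed, 216 failed through the *Dnmt3L* KO library alone, and those that failed held a median of 7 CpG sites against 12 in those kept. The annotated start coincides with the coding start in 786 genes, so that for these the promoter region is the sequence before the start codon and may lie at a distance from the true transcription start.

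The DNA of the *Olfr* coding regions differed in the number of CpG sites, and the following stretches, from CpG-rich ones to one near the family's median density, are shown with the levels measured on them. Each is the run of 300 coding bases of the gene that is richest in CpG, 5′ to 3′ on the coding strand of GRCm38 from the RefSeq genome, with every CpG in capitals. *Olfr94*, *Olfr1344* and *Olfr1395* are receptor genes with low levels in all 3 libraries, and *Olfr71*, *Olfr433* and *Olfr73* are genes that were methylated in WT and low in *Dnmt3L* KO. *Olfr94* (chr17:37197136-37197435, minus strand) held 40 CpG sites in its stretch, *Olfr1344* (chr7:6440037-6440336, plus strand) held 20 and *Olfr1395* (chr11:49148666-49148965, plus strand) held 12. *Olfr71* (chr4:43706218-43706517, minus strand) held 14, *Olfr433* (chr1:174042206-174042505, plus strand) held 7 and *Olfr73* (chr2:88034324-88034623, minus strand), which encodes the eugenol receptor mOR-EG, held 5.
Olfr94: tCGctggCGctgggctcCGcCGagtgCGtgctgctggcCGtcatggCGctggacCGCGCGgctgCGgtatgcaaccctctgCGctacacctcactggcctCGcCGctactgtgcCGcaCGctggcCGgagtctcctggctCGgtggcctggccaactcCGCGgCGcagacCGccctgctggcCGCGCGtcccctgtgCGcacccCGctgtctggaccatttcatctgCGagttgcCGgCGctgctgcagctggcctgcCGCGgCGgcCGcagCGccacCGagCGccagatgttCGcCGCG
Olfr1344: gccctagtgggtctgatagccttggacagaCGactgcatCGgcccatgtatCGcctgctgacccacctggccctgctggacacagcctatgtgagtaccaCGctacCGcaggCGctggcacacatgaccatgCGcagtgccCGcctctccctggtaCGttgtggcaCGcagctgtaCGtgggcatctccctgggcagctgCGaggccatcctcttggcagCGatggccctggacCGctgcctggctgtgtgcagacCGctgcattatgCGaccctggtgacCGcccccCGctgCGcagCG
Olfr1395: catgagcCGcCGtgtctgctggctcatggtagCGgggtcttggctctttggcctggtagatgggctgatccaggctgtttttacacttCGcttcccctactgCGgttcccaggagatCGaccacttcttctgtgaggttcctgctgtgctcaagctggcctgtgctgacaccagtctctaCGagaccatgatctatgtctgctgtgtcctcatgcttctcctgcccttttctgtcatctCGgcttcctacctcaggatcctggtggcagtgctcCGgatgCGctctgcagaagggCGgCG
Olfr71: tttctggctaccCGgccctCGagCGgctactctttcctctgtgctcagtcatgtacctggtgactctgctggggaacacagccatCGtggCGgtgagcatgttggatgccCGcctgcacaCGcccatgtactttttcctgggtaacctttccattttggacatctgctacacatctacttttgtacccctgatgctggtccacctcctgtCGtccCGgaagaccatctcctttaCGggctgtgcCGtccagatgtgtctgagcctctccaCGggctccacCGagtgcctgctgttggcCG
Olfr433: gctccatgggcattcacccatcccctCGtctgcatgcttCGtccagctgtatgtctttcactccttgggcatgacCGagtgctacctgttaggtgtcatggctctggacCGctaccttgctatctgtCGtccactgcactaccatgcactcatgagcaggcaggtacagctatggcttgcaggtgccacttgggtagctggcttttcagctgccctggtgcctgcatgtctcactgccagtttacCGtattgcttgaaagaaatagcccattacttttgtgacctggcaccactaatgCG
Olfr73: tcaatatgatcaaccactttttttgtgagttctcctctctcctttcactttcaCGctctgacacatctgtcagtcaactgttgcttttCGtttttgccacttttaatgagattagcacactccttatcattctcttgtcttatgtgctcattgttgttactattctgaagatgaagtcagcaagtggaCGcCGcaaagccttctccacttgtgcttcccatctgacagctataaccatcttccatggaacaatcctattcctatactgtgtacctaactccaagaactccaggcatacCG
In the *Olfr94* stretch none of 96 calls was methylated for WT, none of 107 for *Pld6* KO and none of 35 for *Dnmt3L* KO, with upper 95% bounds of 0.0385, 0.0347 and 0.0989. The *Olfr1344* stretch was at 0.0870, 0.0790 and 0.0625, and that of *Olfr1395* at 0.0189, 0.0645 and 0. In contrast, the *Olfr71* stretch was at 0.897 for WT, 0.860 for *Pld6* KO and 0.0588 for *Dnmt3L* KO although it held more CpG sites than that of *Olfr1395*. The *Olfr433* stretch was at 0.970, 0.962 and 0.0714, and that of *Olfr73* at 0.750, 0.727 and 0. CpG number by itself therefore did not sort these 6 stretches into methylated and unmethylated ones, and they were chosen after their values were seen.

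*Olfr* promoters and bodies were highly methylated in WT and *Pld6* KO spermatogonia and had lost most of their methylation in *Dnmt3L* KO spermatogonia. Over the 792 promoters the median level was 0.805 for WT (quartiles 0.595 and 0.90), 0.803 for *Pld6* KO (0.615 and 0.895) and 0.167 for *Dnmt3L* KO (0 and 0.286). Over the 715 bodies the medians were 0.793, 0.812 and 0.130. The pooled level of all calls in these promoters was 0.692 for WT (95% interval 0.686 to 0.699), 0.716 for *Pld6* KO (0.711 to 0.721) and 0.185 for *Dnmt3L* KO (0.178 to 0.192). The distributions in WT and *Pld6* KO lie over each other, and the upper quartile of *Dnmt3L* KO lies below the lower quartiles of both.

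**Figure D1:**
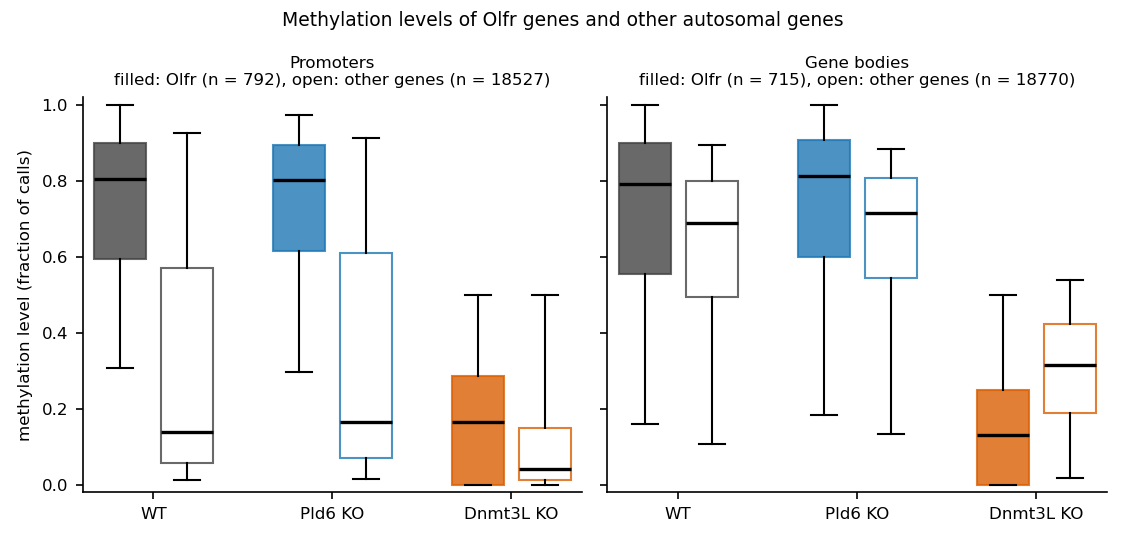
Methylation level (y axis, fraction of CpG calls that were methylated) of *Olfr* promoters and gene bodies (filled boxes) and of those of other autosomal protein-coding genes (open boxes) in the 3 libraries, with the median as the line, quartiles as the box and the 5 and 95% points as whiskers. *Olfr* promoters have medians of 0.805, 0.803 and 0.167, whereas the promoters of the other genes have medians of 0.138, 0.167 and 0.0426.

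Of the 792 *Olfr* promoters, 671 (84.7%) were lower in *Dnmt3L* KO than in WT by at least 0.3, against 28.0% of all 19319 promoters kept. Among the 715 bodies 587 (82.1%) were lower by that amount, against 54.6% of all 19485 bodies kept. Counting any difference, 780 of the promoters (98.5%) and 705 of the bodies (98.6%) were below WT, against 92.2% of other promoters and 98.4% of other bodies. Intervals that did not overlap, with *Dnmt3L* KO the lower, were found for 483 promoters (61.0%, against 37.9% of all promoters) and 433 bodies (60.6%, against 87.2% of all bodies). This interval rule depends on depth, and a median of 21 WT calls per *Olfr* body left wider intervals than in other gene bodies. No *Olfr* region was higher in *Dnmt3L* KO with intervals apart, against 0.0518% of all promoters and 0.0103% of all bodies. In *Dnmt3L* KO 211 promoters (26.6%) and 205 bodies (28.7%) had no methylated call at all, at median depths of 10 and 11 calls over the promoters and bodies kept. The same held for 18.5% of other promoters and 2.99% of other bodies. Among bodies with 5 to 20 calls in *Dnmt3L* KO, it held for 32.0% of *Olfr* and 28.1% of other bodies. Among promoters of that depth, it held for 29.6% of *Olfr* and 14.2% of other promoters.

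Most other promoters are CpG-rich and were unmethylated in WT, so the comparison was repeated within classes of like sequence. The *Olfr* promoters had a median of 37.8% GC and 4.80 CpG per kb, against 49.3% and 25.2 per kb in other genes. Over the middle range of *Olfr* GC content the medians were 0.80 for WT, 0.794 for *Pld6* KO and 0.167 for *Dnmt3L* KO for 397 *Olfr* promoters, and 0.774, 0.80 and 0.167 for 1204 promoters of other genes. The loss in *Dnmt3L* KO was at least 0.3 in 86.7% of the former and 73.5% of the latter. Restricted also to a WT level of at least 0.6, these shares were 94.0% and 91.9%, and the *Dnmt3L* KO medians were 0.1835 and 0.231. Over the middle range of *Olfr* CpG density the *Dnmt3L* KO medians were 0.167 for 455 *Olfr* promoters and 0.250 for 1325 others, and 86.4% and 83.9% had lost at least 0.3. At 5 to 20 calls in *Dnmt3L* KO the medians were likewise 0.167 and 0.250. In *Dnmt3L* KO the median of *Olfr* promoters was thus equal to that of other promoters of the same GC content, and below it where WT was at least 0.6. It was also below that of other promoters of the same CpG density or depth.

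Gene bodies differed more. Over the middle range of *Olfr* CpG density, 360 *Olfr* bodies had medians of 0.813 for WT, 0.840 for *Pld6* KO and 0.155 for *Dnmt3L* KO, and 7111 bodies of other genes had medians of 0.762, 0.774 and 0.358. Where WT was at least 0.6, 97.1% of 513 *Olfr* bodies and 74.0% of 11984 other bodies had lost at least 0.3 in *Dnmt3L* KO. Other gene bodies are much longer and deeper, and *Olfr* bodies were also compared with the 713 other bodies that had 5 to 20 calls in *Dnmt3L* KO. These had medians of 0.807, 0.796 and 0.177, against 0.818, 0.831 and 0.143 in the 556 *Olfr* bodies of that depth. At that depth the *Dnmt3L* KO medians lay close together, but 85.25% of these *Olfr* bodies and 75.6% of the others had lost at least 0.3. With at least 20 calls in each library, the *Dnmt3L* KO medians were 0.100 for 165 *Olfr* bodies and 0.319 for 18092 others. In these sets 72.1% and 52.7% had lost at least 0.3.

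Receptors known for their ligands or for work on receptor choice followed the family. *Olfr16* (MOR23, a receptor for lyral that is also found in sperm) had promoter levels of 0.857 (42 calls), 0.943 (53 calls) and 0.20 (20 calls) and body levels of 0.882, 0.857 and 0.231. *Olfr1507* (MOR28, the receptor gene next to the H enhancer on chromosome 14) had promoter levels of 0.879, 0.833 and 0.286 and body levels of 0.878, 0.896 and 0.212. *Olfr78*, whose receptor responds to short-chain fatty acids and is found in kidney and carotid body, had promoter levels of 0.857, 0.913 and 0 and body levels of 0.736, 0.881 and 0.174. For these 3 genes WT and *Pld6* KO were both high and *Dnmt3L* KO was low. The body of *Olfr558*, a further receptor for short-chain carboxylic acids, was at 0.871, 0.911 and 0.367. That of *Olfr2* (I7, the octanal receptor) was at 0.675, 0.881 and 0.292, and its promoter failed the call minimum. Both bodies kept more methylation in *Dnmt3L* KO than the median of the family, 0.130, as did the bodies of *Olfr16*, *Olfr1507* and *Olfr78*.

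*Olfr544*, which encodes a receptor for azelaic acid, stood apart at its promoter, with levels of 1.0 (21 calls), 0.861 (43 calls) and 0.833 (6 calls, interval 0.437 to 0.970). Only 5 of the 792 promoters were at 0.8 or more in *Dnmt3L* KO, and the depth of this value is close to the minimum. The *Olfr544* body had 157, 188 and 54 calls and was at 0.567, 0.479 and 0.278. *Olfr17* (P2, a gene much used to trace sensory axons) had a promoter at 0.643, 0.677 and 0.222 but a body at 0.167 (18 calls), 0.293 (41 calls) and 0 (10 calls), so that its coding sequence was low in every library. *Olfr73* had a promoter at 0.750, 0.556 and 0.125 and a body at 0.733, 0.750 and 0. *Olfr160* (M72) had at most 10 calls in any region and library, and no level is given for it.

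The largest losses in *Dnmt3L* KO, among regions with at least 20 calls in each library, took highly methylated genes to low levels. *Olfr433*, on the chromosome 1 cluster, had a body at 0.979 (interval 0.889 to 0.996), 0.976 (0.874 to 0.996) and 0.0476 (0.00846 to 0.227). The body of *Olfr71* on chromosome 4 was at 0.907 (0.820 to 0.954), 0.90 (0.839 to 0.940) and 0.0323 (0.00572 to 0.162) with 28.75 CpG per kb. WT and *Pld6* KO did not differ beyond counting error in either gene. Next in order were the bodies of *Olfr561*, *Olfr44* and *Olfr644*, which fell from WT levels of 0.935, 0.938 and 0.868 to 0.0909, 0.118 and 0.0500. At promoters, *Olfr487* was at 0.962, 0.960 and 0.0909 and *Olfr648* at 0.966, 0.530 and 0.105. *Olfr958*, *Olfr1384* and *Olfr1012* had WT levels of 0.957, 0.938 and 0.960 against 0.148, 0.167 and 0.190 in *Dnmt3L* KO.

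A minority of *Olfr* coding sequences was already little methylated in WT, at a share near that of other bodies at the minimum of 5 calls. In all, 83 bodies (11.6%) were under 0.3 in WT, against 12.4% of other bodies, and 38 promoters (4.80%), against 66.7% of other promoters. With at least 20 calls in each library, 33 of 165 bodies (20%) were under that level, against 12.4% of other bodies. Of the promoters 15 of 116 (12.9%) were, against 76.8% of other promoters. The 33 low bodies had a median of 26.8 CpG per kb (12.5 to 74.1) and lay in 15 clusters, whereas the other 132 had a median of 10.35. Their median levels were 0.122 for WT, 0.172 for *Pld6* KO and 0 for *Dnmt3L* KO, against 0.762, 0.791 and 0.146 in the other 132. *Olfr94*, in the cluster next to the major histocompatibility complex, was the lowest, with a body at 0.00389 (257 calls), 0.00656 (305 calls) and 0 (80 calls) and 74.1 CpG per kb. Its neighbour *Olfr95* was at 0.0750, 0.0229 and 0 and held 44.7 CpG per kb. On chromosome 15, *Olfr279*, *Olfr281* and *Olfr282* had WT body levels of 0.0619, 0.0790 and 0.0588, and the median WT body level of that whole cluster of 9 genes was 0.282. *Olfr1395*, *Olfr1344*, *Olfr214*, *Olfr982* and *Olfr599* completed the 10 lowest bodies, with WT levels from 0.0241 to 0.0896.

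The WT level of *Olfr* bodies was lower in the classes of high CpG density, as it was in other bodies, but low bodies were more frequent in the middle classes. From 8 to 12 CpG per kb, 209 *Olfr* bodies had medians of 0.807, 0.840 and 0.143. From 16 to 24 per kb, 50 bodies had medians of 0.448, 0.556 and 0.0729, and at 24 or more, 28 bodies had medians of 0.172, 0.184 and 0. For the 2199 other bodies in the densest class the medians were 0.161, 0.198 and 0.0536, and 72.2% of them were under 0.3 in WT against 75% of the *Olfr* bodies. From 16 to 24 per kb these shares were 14.7% of other bodies and 38% of *Olfr* bodies, and from 12 to 16 per kb 2.43% and 14.1%. These classes were not matched for length or depth. The median of WT calls was 606 over all other bodies kept and 21 over *Olfr* bodies, so that other bodies average over more sequence. Across the 715 *Olfr* bodies, WT level and CpG density had a Pearson r of -0.421 and a Spearman rho of -0.226, against -0.680 and -0.555 across the 18770 other bodies, as a description over genes that share a library and, in part, sequence. *Olfr71*, at 28.75 CpG per kb and a WT level of 0.907, is the exception among the genes named here.

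**Figure D2:**
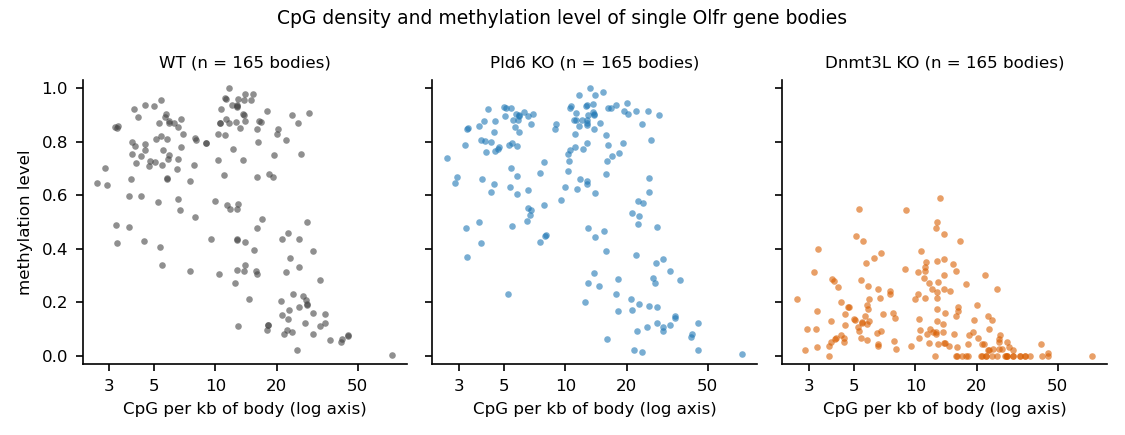
Methylation level (y axis, fraction of methylated calls) of the 165 *Olfr* bodies with at least 20 calls in each library against CpG sites per kb (x axis, log scale), each point a gene, with a panel for each library. In WT the 33 bodies under 0.3 have a median of 26.8 CpG per kb and the other 132 a median of 10.35.

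The low level was centred on the coding sequence itself. Pooled over all 1103 genes in bins of 500 bases from the coding start, the level in WT was 0.794 (interval 0.780 to 0.807) from 1000 to 500 bases before it, 0.723 in the last 500 bases before it and 0.614 (0.604 to 0.623) in the first 500 bases of the coding sequence. It was 0.620 in the next 500 bases and 0.754 in the 500 bases after that. The dip spans about the length of the coding sequence, whose median model length was 951 bases, and CpG density rose there from 3.79 to 8.64 per kb. The same bins were at 0.789, 0.733, 0.675 and 0.673 in *Pld6* KO and at 0.213, 0.187, 0.140 and 0.143 in *Dnmt3L* KO. Thus all 3 libraries were lower over the coding sequence than in the adjoining 500 bases on either side, and *Pld6* KO was above WT there. Farther out *Pld6* KO was lower than over the coding sequence, at 0.654 from 6500 to 7000 bases after the start, where WT was at 0.659.

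The dip was deepest in the 82 genes whose bodies held at least 16 CpG per kb. These were at 0.817 in WT from 2000 to 1500 bases before the coding start, at 0.306 (0.288 to 0.325) in the first 500 coding bases and at 0.862 from 2000 to 2500 bases after it. In *Pld6* KO the same positions were at 0.798, 0.417 (0.401 to 0.434) and 0.829, and in *Dnmt3L* KO at 0.30, 0.0614 and 0.407. The dense coding sequences were thus low between methylated sides, and the *Pld6* KO level over them lay above that of WT. The other 1021 genes had a shallower dip, from 0.802 to 0.713 in WT and from 0.794 to 0.758 in *Pld6* KO. Their dip was relative to the nearby DNA only. From 6500 to 7000 bases after the coding start they were at 0.649 in WT and 0.647 in *Pld6* KO, below the coding sequence.

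**Figure D3:**
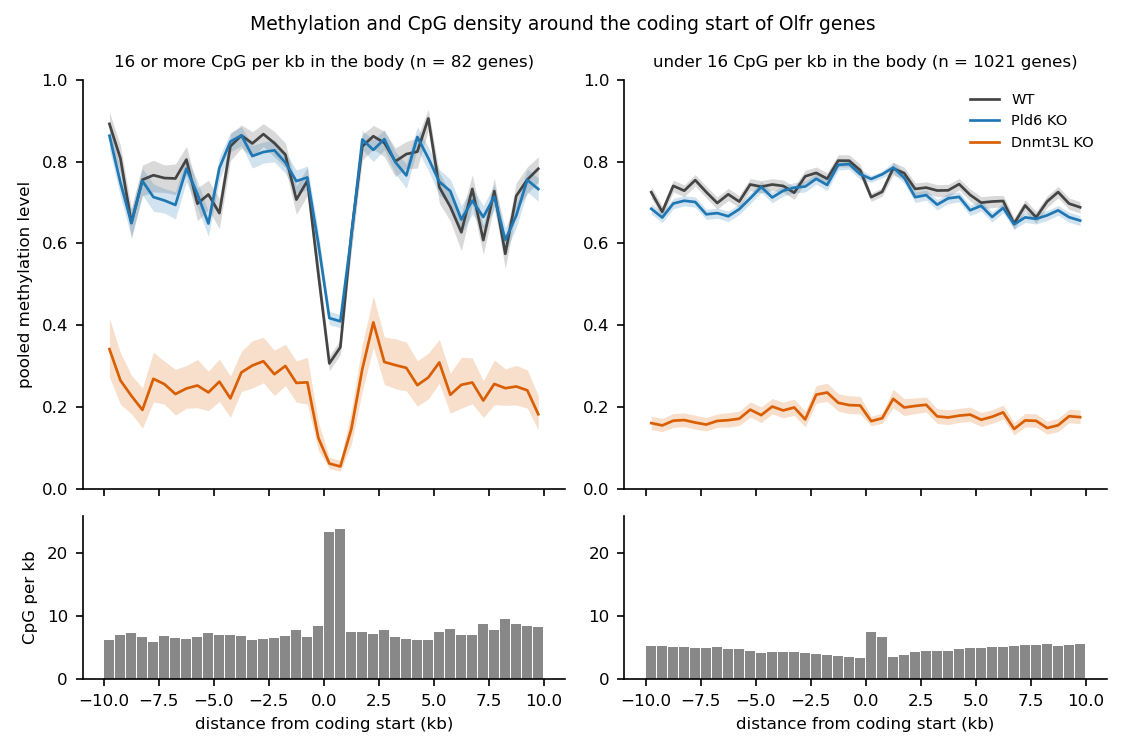
Pooled methylation level (upper panels, bands are 95% intervals of counting error) and CpG sites per kb (lower panels) in bins of 500 bases by distance from the coding start of *Olfr* genes (x axis, kb), for genes with CpG-dense bodies (left) and for the others (right). Over the first 500 coding bases of the 82 dense genes the WT level is 0.306, and 2000 bases past the start it is 0.862.

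Few *Olfr* genes differed between *Pld6* KO and WT, and these went in both directions. Of the 792 promoters, 27 (3.41%) were lower in *Pld6* KO by at least 0.3 and 35 (4.42%) were higher, against 0.549% and 0.626% of all promoters. Of the 715 bodies, 19 (2.66%) were lower and 43 (6.01%) higher, against 0.257% and 0.354% of all bodies. With the libraries thinned to like depth 49 of 574 promoters (8.54%) were lower in *Pld6* KO, against 0.962% of all promoters. Without chromosome 9 the bodies that were lower numbered 12 of 645 (1.86%), against 0.229% of all bodies. Low depth alone widens such differences, and among other regions with 5 to 20 calls in *Dnmt3L* KO the shares were 1.98% and 1.95% of 2929 promoters and 3.37% and 2.24% of 713 bodies. The *Olfr* regions of that depth had shares of 3.66% lower and 4.83% higher at promoters and of 3.06% and 6.66% at bodies. With intervals apart, 13 promoters were lower and 23 higher (1.58% and 7.24% of all promoters), and 14 bodies were lower and 33 higher (3.82% and 20.9% of all bodies). The median difference between WT and *Pld6* KO was 0 at promoters and -0.0153 at bodies.

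Among regions with at least 20 calls in each library, the largest decreases in *Pld6* KO included some genes rich in repeats and some with few. The promoter of *Olfr648*, a gene of the class I cluster, was at 0.966 for WT (0.904 to 0.988), 0.530 for *Pld6* KO (0.440 to 0.619) and 0.105 for *Dnmt3L* KO, and 23 of its 40 CpG sites lay in repeats. That of *Olfr315* on chromosome 11 was at 0.714, 0.329 and 0.0370, with 19 of 45 sites in repeats. In both promoters the *Pld6* KO interval lay below that of WT, and neither contained a match to the amplicons of young retrotransposons searched for. The body of *Olfr18* on chromosome 9, which spans a long intron, was at 0.806 (0.747 to 0.853), 0.451 (0.396 to 0.506) and 0.0250 (0.00854 to 0.0709). It was the exception among the genes named here in containing a match to the promoter of L1Md_A, a young LINE-1 family, and 146 of its 178 CpG sites lay in repeats. *Olfr851*, whose gene lies in the same cluster, had a body at 0.575, 0.233 and 0.107 with 34 of 54 sites in repeats. The bodies of *Olfr1428*, *Olfr975* and *Olfr27* and the promoters of *Olfr884*, *Olfr601* and *Olfr212* were lower in *Pld6* KO by 0.236 to 0.330. Of their CpG sites, 14 of 57, 2 of 15 and 28 of 65 lay in repeats in these bodies and 8 of 16, 3 of 23 and 7 of 40 in these promoters.

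The bodies with the largest increases in *Pld6* KO held few repeats. *Olfr1231* had a body at 0.321 (0.179 to 0.507), 0.796 (0.664 to 0.885) and 0.130, and *Olfr332* a body at 0.307 (0.225 to 0.403), 0.726 (0.623 to 0.810) and 0.0656. In *Olfr370*, which lies outside the clusters, the body was at 0.138, 0.494 and 0.148. Its WT minus *Dnmt3L* KO difference, -0.0102, was the lowest signed value among bodies of that depth. Repeats held 2, 0 and 1 of the 12, 29 and 25 CpG sites of these bodies. *Olfr632* and *Olfr691*, both of the class I cluster, were at 0.231 and 0.333 in WT and at 0.571 and 0.664 in *Pld6* KO, with 0.0278 in *Dnmt3L* KO for each. At promoters, *Olfr187* was at 0.154, 0.500 and 0 and *Olfr551* at 0.766, 1.0 and 0.250, and *Olfr301*, *Olfr578* and *Olfr1359* were higher in *Pld6* KO by 0.317, 0.281 and 0.232. The promoter of *Olfr1342* was at 0.159 (0.0914 to 0.263), 0.342 and 0.364 (0.197 to 0.571), above WT in both mutants but with overlapping intervals.

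The 1103 genes lie on 16 autosomes, with 287 on chromosome 2, 239 on chromosome 7 and 130 on chromosome 9. Joining genes less than 1 Mb apart gave 29 clusters of at least 5 genes, which held 1069 genes and 33.14 Mb. All CpG sites from the first to the last gene of a cluster were pooled, and compared with those of the adjoining 200 kb on each side. The median level of the 29 clusters was 0.719 for WT, 0.679 for *Pld6* KO and 0.199 for *Dnmt3L* KO, and that of their flanks was 0.689, 0.708 and 0.289. In WT 12 clusters were below and 17 above their flanks, with differences from -0.162 to 0.243. In *Dnmt3L* KO 26 of 29 clusters were below their flanks, 23 of them with intervals apart, and the median difference was -0.0705. The *Dnmt3L* KO level was a median of 28.6% of the WT level in the clusters and 41.8% in the flanks.

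**Figure D4:**
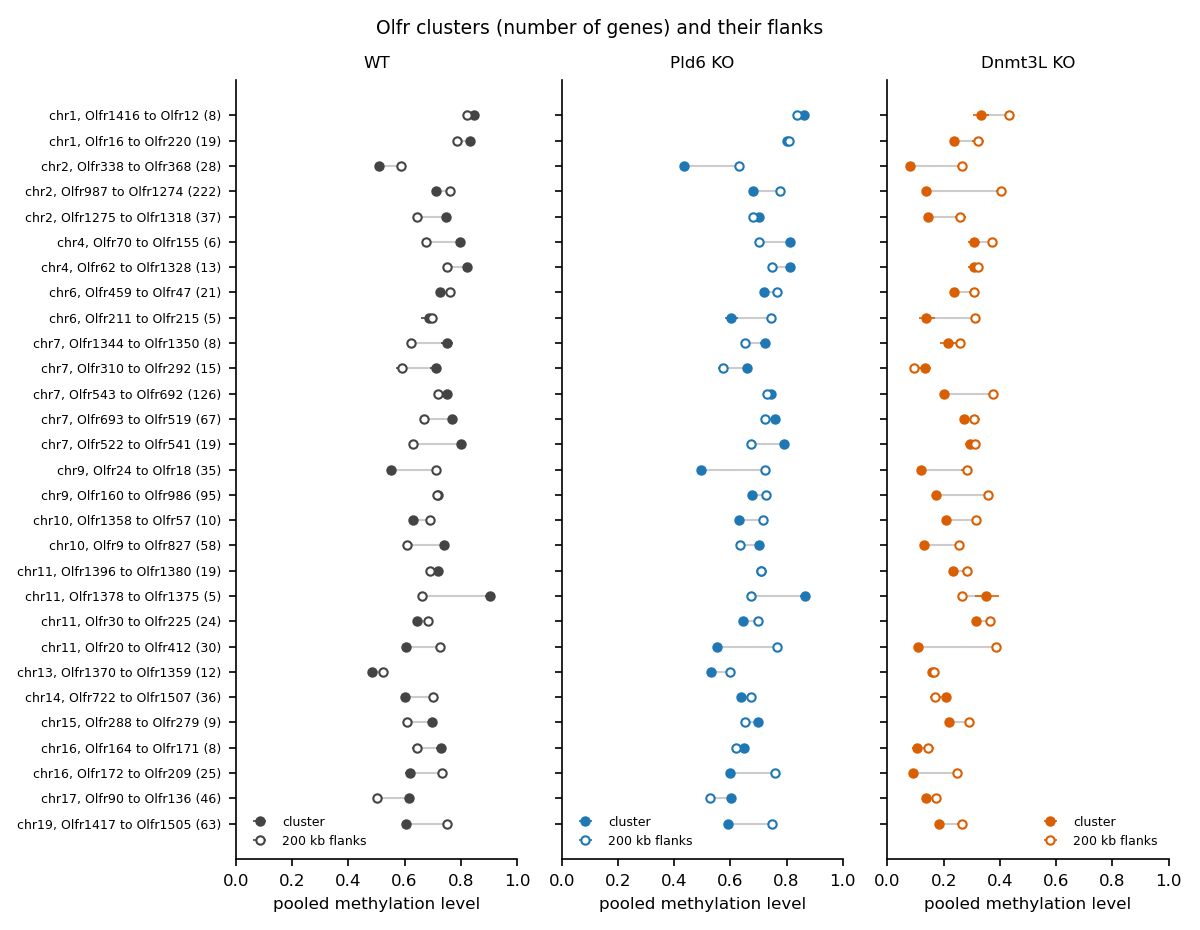
Pooled methylation level (x axis, fraction of methylated calls) of each of the 29 *Olfr* clusters (filled) and its 200 kb flanks (open), named on the y axis by chromosome, first and last gene and number of genes, with horizontal bars for 95% intervals of counting error and a panel for each library. In *Dnmt3L* KO 26 of the 29 clusters are below their flanks, against 12 in WT and 15 in *Pld6* KO.

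The largest cluster, chr2:85330967-90401674 with 222 genes from *Olfr987* to *Olfr1274*, was at 0.710, 0.679 and 0.138, and its flanks were at 0.761, 0.777 and 0.403. The class I cluster, chr7:102476773-105369317 with 126 genes from *Olfr543* to *Olfr692* around the beta-globin genes, was at 0.751, 0.745 and 0.199, and its flanks at 0.721, 0.732 and 0.375. In both, the *Dnmt3L* KO level was far below that of the flanks while the WT level was close to it. The cluster with the lowest *Dnmt3L* KO level was chr2:36376778-37332732 (28 genes, *Olfr338* to *Olfr368*) at 0.508, 0.435 and 0.0797, with flanks at 0.586, 0.630 and 0.266. The cluster with the highest WT level was that at chr11:50969020-51049050 (5 genes, *Olfr1378* to *Olfr1375*) at 0.905, 0.864 and 0.352, above its flanks at 0.662, 0.675 and 0.265. It was among the 3 clusters that exceeded their flanks in *Dnmt3L* KO. The others were chr14:49894258-52495695 (36 genes, *Olfr722* to *Olfr1507*), at 0.602, 0.638 and 0.208 with flanks at 0.701, 0.674 and 0.170, and chr7:86268730-86695384 (15 genes, *Olfr310* to *Olfr292*), at 0.711, 0.660 and 0.132 with flanks at 0.589, 0.574 and 0.0949.

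Class I genes did not stand apart from the rest of the family. In the beta-globin cluster 105 promoters had medians of 0.818, 0.862 and 0.179, against 0.80, 0.792 and 0.167 in the 687 other *Olfr* promoters. The bodies of 107 of its genes had medians of 0.808, 0.870 and 0.133, against 0.786, 0.80 and 0.126 in the 608 others. *Pld6* KO was thus higher in this cluster than elsewhere by under 0.1, which was not tested. The genes outside the clusters were similar too, with promoter medians of 0.783, 0.822 and 0.214 over 27 genes and body medians of 0.774, 0.854 and 0.151 over 28 genes.

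Within the clusters the level depended on the kind of sequence. Member bodies were at 0.654 for WT, 0.686 for *Pld6* KO and 0.159 for *Dnmt3L* KO, and member promoters outside bodies were at 0.769, 0.756 and 0.213. DNA between genes was at 0.690, 0.662 and 0.173. The other genes that lie within the clusters were at 0.632, 0.660 and 0.30, and the genes of the flanks were at 0.672, 0.706 and 0.335. The *Dnmt3L* KO level was thus low in receptor genes and in the DNA between them, and higher in the other genes of the same clusters. Other genes were also above the DNA between genes outside the clusters. In *Dnmt3L* KO these were at 0.335 and 0.263 in the flanks and at 0.366 and 0.245 on the rest of the autosomes.

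At the cluster edges, pooled over clusters in steps of 20 kb, the *Dnmt3L* KO level fell from 0.331 at 200 to 180 kb outside to 0.255 in the last 20 kb before the edge, 0.235 in the first 20 kb inside and 0.191 at 180 to 200 kb inside. The decline was gradual and had no step at the edge. The bins up to 40 kb inside pooled 58 edges and the bin at 180 to 200 kb inside pooled 42, since short clusters do not reach so far. The set of clusters thus changes along the inner bins, and its share in the decline was not tested. In WT the level rose from 0.669 to 0.781 across the edge, and in *Pld6* KO from 0.675 to 0.755. Clusters were also compared with other autosomal DNA in windows of 100 kb of the same GC content. From 38 to 40% GC, 118 windows inside clusters had medians of 0.717, 0.699 and 0.160 and 4418 windows elsewhere had medians of 0.789, 0.773 and 0.221. From 34 to 36% the *Dnmt3L* KO medians were 0.141 inside and 0.147 elsewhere, and from 42 to 44% they were 0.274 and 0.321. WT was lower inside clusters too, at 0.694 against 0.732 and at 0.696 against 0.769 in these same classes. The median loss from WT to *Dnmt3L* KO was 0.545 inside and 0.575 elsewhere from 34 to 36%, 0.549 and 0.555 from 38 to 40%, 0.520 and 0.489 from 40 to 42% and 0.377 and 0.434 from 42 to 44%. The level of cluster DNA was thus below that of other DNA of like GC content in WT and in *Dnmt3L* KO, and of these 4 classes the loss between them was larger inside the clusters only from 40 to 42%.

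**Figure D5:**
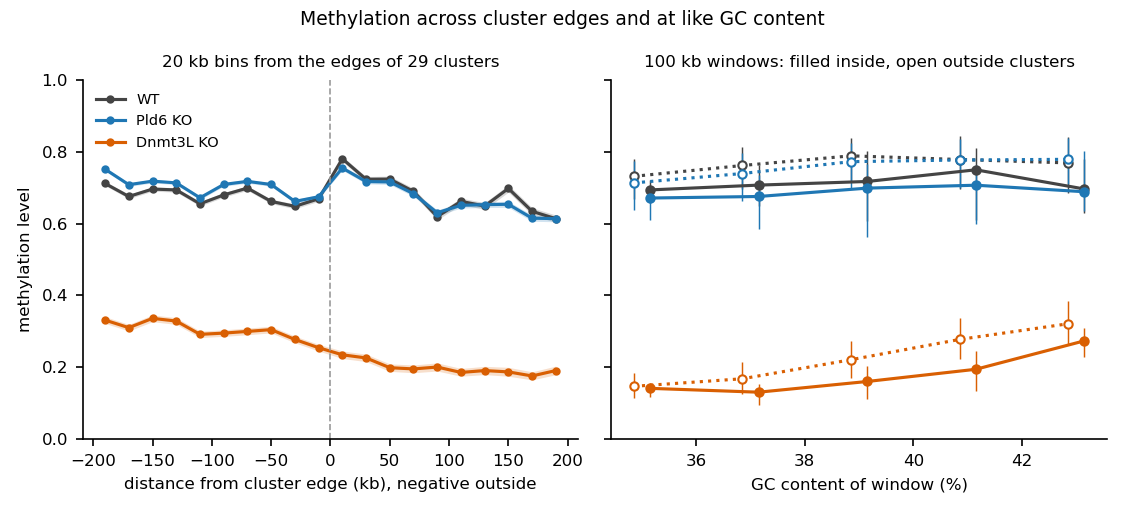
Left, pooled methylation level (y axis) by distance from the edges of the 29 *Olfr* clusters (x axis, kb, negative outside) in steps of 20 kb, and right, median level of 100 kb windows by GC content (x axis, percent) inside (filled) and outside (open) clusters, with quartiles as bars. The *Dnmt3L* KO level declines from 0.331 at the outer end (58 edges) to 0.191 at the inner end (42 edges), and is lower inside than outside in each GC class.

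Across the clusters *Pld6* KO was slightly below WT, whereas in the flanks and over all autosomes it was above. The WT to *Pld6* KO difference was above 0 in 23 of 29 clusters (median 0.0140, from -0.0475 to 0.0822) and in 5 of 29 flanks (median -0.0203). The cluster value exceeded that of its own flanks in 27 of 29 clusters. Other DNA of like GC content had the same sign in AT-rich classes, since from 36 to 38% GC *Pld6* KO was below WT in 80.9% of the windows inside clusters (median difference 0.0321) and 69.5% of those outside (0.0222). From 38 to 40% the shares were 83.9% and 63.0%, and from 42 to 44% they were 27.6% and 37.9%. Repeats inside the clusters were at 0.715 for WT (0.712 to 0.718), 0.647 for *Pld6* KO (0.645 to 0.650) and 0.159 for *Dnmt3L* KO, so that *Pld6* KO was the lower. Outside repeats the clusters were at 0.662, 0.676 and 0.218, and *Pld6* KO was the higher. Repeats held a median of 43.5% of the CpG sites of a cluster and 24.3% of those of its flanks. Over the 29 clusters, which share the 3 libraries, this share and the WT to *Pld6* KO difference had a Pearson r of 0.682 and a Spearman rho of 0.688, given as a description.

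Matches to the L1Md_A promoter were denser in the clusters, with 41 regions or 1.24 per Mb against 0.753 per Mb on the rest of the autosomes. They were at 0.834 for WT, 0.161 for *Pld6* KO and 0.0586 for *Dnmt3L* KO in the clusters and at 0.871, 0.223 and 0.0873 elsewhere. Both mutants were therefore low at these elements, inside the clusters as outside. Without the sites within 3 kb of such a match, the clusters were at 0.676, 0.669 and 0.201, and the WT to *Pld6* KO difference was above 0 in 23 of 29 clusters with a median of 0.0105.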

How the data were processed

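CpG methylation was measured by PBAT bisulfite sequencing in 1 library of each genotype. Per the study's methods, the authors trimmed the first 6 and last 15 nt of the reads and mapped them to unique regions, with Bismark and mm10 named in the submitters' processing notes. The deposited files hold, for each CpG position, the counts of methylated and unmethylated calls and the methylated fraction, which the authors derived from those counts. No coverage filter or removal of duplicate reads is given in the sources used here. Since only uniquely mapped reads were used, near-identical receptor copies can lose reads.

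From the counts, calls of both strands were pooled per region, and every level here was recomputed from the counts and not from the deposited fraction. The members and lists were chosen with earlier results of these data known. *Olfr151* is a transcribed pseudogene in RefSeq and no member. Regions needed at least 5 calls in each library, and a difference of at least 0.3 was counted. Clusters hold at least 5 *Olfr* genes with gaps of at most 1 Mb, and their flanks are 200 kb long. Genes were named from a list of well-studied receptors. Others were the 5 promoters and 5 bodies with the highest or lowest signed difference from WT where every library had 20 calls or more. The 10 lowest regions in WT and the genes whose sequence is printed were named after their values were seen. Repeats are the soft-masked bases of the reference. Retrotransposon amplicons were matched at 90% identity with blastn 2.17.0+. Everything else used Python 3.11.15, NumPy 2.4.6, SciPy 1.17.1, pandas 2.3.3 and matplotlib 3.10.9, and the steps were tested on simulated data. Alternatives varied the call minimum, region, threshold, weighting, depth, gap and flank length, and left out each of the largest chromosomes.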

Additional observations from a re-analysis of the deposited data

How the results depend on the processing

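No paired analysis was possible because each genotype had 1 library, and for the same reason no replicate could be left out. The cause of the shifts was not tested where the setting itself does not remove regions or calls. With at least 10 calls, 351 of 419 promoters and 313 of 398 bodies were lower in *Dnmt3L* KO by at least 0.3. Of the same regions 12 and 6 were lower in *Pld6* KO. With at least 20 calls these were 87 of 116, 119 of 165, 3 of 116 and 2 of 165. The shares lower in *Dnmt3L* KO were 74.5 to 92.1% of promoters and 72.1 to 88.0% of bodies over the alternatives, against backgrounds of 17.5 to 35.2% and 30.5 to 78% (at a threshold of 0.2, 88.0% of *Olfr* bodies against 78%, and without the first 500 bases 77% against 66.6%). A promoter of 500 bases on each side gave 334 and 15 of 440, and bodies without their first 500 bases gave 331 and 11 of 430. A threshold of 0.2 or 0.4 gave 83 or 9 promoters lower in *Pld6* KO (10.5% or 1.14%, against 1.57% or 0.207% of all promoters). For bodies it gave 50 or 6 (6.99% or 0.839%, against 0.80% or 0.087% of all bodies). Over the alternatives the shares lower in *Pld6* KO were 1.14 to 10.5% of promoters and 0.839 to 6.99% of bodies. Their backgrounds were 0.145 to 1.57% and 0.0493 to 0.80%. With libraries thinned to like depth 49 of 574 promoters were lower in *Pld6* KO (8.54%, against 0.962% of all promoters). Without chromosome 9, 12 of 645 bodies were (1.86%, against 0.229% of all bodies). The median loss in *Dnmt3L* KO at promoters was 0.553 (10 calls), 0.475 (20 calls), 0.556 (thinned) and 0.556 without chromosome 2 or 7. At bodies it was 0.543, 0.484, 0.559 (mean over sites), 0.550 (thinned), 0.550 (without chromosome 7), 0.556 (sites shared by the libraries) and 0.545 (without the first 500 bases). The median of WT minus *Pld6* KO was -0.0141 (20 calls), 0.0101 (without chromosome 7) and -0.0132 (500 bases) at promoters, and -0.00595 (mean over sites) and -0.00550 (without chromosome 7) at bodies. Cluster minus flank was 0.0508 (500 kb flanks), 0.0470 (500 kb gap) and 0.0472 (members left out) in WT, 0.0225 (500 kb gap), 0.0110 (sites outside repeats), 0.00772 (shared sites) and 0.000193 (without sites over 20 calls) in *Pld6* KO, where the reported value was -0.000390, and -0.0764 to -0.0528 in *Dnmt3L* KO. Shared sites and the removal of sites near L1Md_A matches were chosen after seeing the data. Depth limits single genes, where a level from 5 calls has an interval of over 0.3.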

Other observations

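*Olfr* loci outside the rule were likewise high in WT and *Pld6* KO and low in *Dnmt3L* KO. Of 315 autosomal *Olfr* pseudogenes in RefSeq, 106 had at least 5 calls in each library. Their pooled levels were 0.700 (95% Wilson interval 0.682 to 0.718) in WT, 0.725 (0.710 to 0.740) in *Pld6* KO and 0.147 (0.129 to 0.168) in *Dnmt3L* KO. The medians were 0.837, 0.802 and 0.121, and 89 of the 106 (84.0%) were lower in *Dnmt3L* KO by at least 0.3. The share was 82.1% of the member bodies and 54.6% of all bodies kept. The pooled levels of the 715 member bodies were 0.641 (0.635 to 0.647), 0.679 (0.674 to 0.684) and 0.161 (0.155 to 0.167). In pooled level, receptor pseudogenes were thus above member bodies in WT and *Pld6* KO with intervals apart, and the intervals overlapped in *Dnmt3L* KO. The medians of the member bodies were 0.793, 0.8125 and 0.130, so that by medians the pseudogenes were higher in WT only. The X chromosome has 6 *Olfr* protein-coding genes, of which 2 were kept, with pooled levels of 1.0 (18 calls), 0.946 (37 calls) and 0.111 (27 calls).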
